A study of Mus musculus with 3 samples.

Results

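Slc15a2, B3gat2, Insyn2b, Cdk5rap1, Dynlt1c, Olfr1369-ps1, Trim16 and Bloc1s1 are 8 autosomal genes of the 32285 in the count matrices whose level in mouse thymus was near absent or strongly shifted in 1 of 3 single-cell RNA libraries. They were picked by symbol because an earlier ranking of these same counts, mostly in quiescent thymocytes, had placed them among the genes that differed most between libraries. The size of each shift is therefore a description of how the genes were chosen, and no test is attached to it. The question put to them was whether the shift was present in every stage of T cell development or in some stages.

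The series compared cell populations of the thymus of female mice aged 4 weeks that carry altered alleles of p53, the DNA damage-responsive transcription factor encoded by Trp53. There was 1 library for each of 3 genotypes: p53 AD/- on a background labelled 50% BALB/C with C57BL7, p53-/- labelled 50% BALB/C with C57BL8, and p53+/- labelled 50% BALB/C with C57BL6. The C57BL names differ only in their last digit, which may be a fill error, and they are printed as labelled. They do not show that the C57BL parents differed. What the AD allele is the labels leave unsaid, the series title refers to p53 dimers, and the design text calls the control WT although its label reads p53+/-. Every library, the control included, thus lacks at least 1 intact p53 allele. Whether a library holds 1 or several animals is not stated. Genotype, strain label, animals and library coincide, so a difference tied to p53, to the strain background or to the library cannot be told apart, and no test between libraries was made.

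T cell precursors enter the thymus without CD4 and CD8 (double negative, DN), divide, become quiescent CD4 and CD8 double positive (DP) cells that rearrange their receptor genes, and after selection mature into single positive (SP) cells. An inherited difference in a gene is carried by all cells of an animal, whereas a change of developmental state is carried by the cells in that state. All cells of a library also share its genotype and preparation, so a shift in every stage cannot be assigned to a cause. The 8 genes have unrelated functions. Slc15a2 encodes a proton-coupled transporter of small peptides, known from kidney and brain. B3gat2 encodes a glucuronosyltransferase that makes the HNK-1 carbohydrate, and Insyn2b a relative of an inhibitory synapse protein. Cdk5rap1 encodes an enzyme that adds a methylthio group to mitochondrial tRNAs, and Dynlt1c a light chain of the dynein motor. Bloc1s1 encodes a subunit shared by the BLOC-1 and BORC complexes of endosomes and lysosomes, and its mRNA is a known target of the stress sensor IRE1. Trim16 encodes a TRIM family ubiquitin ligase that takes part in the clearance of damaged lysosomes. Olfr1369-ps1 is named as an olfactory receptor pseudogene, although GENCODE M21 lists it as protein coding.

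The stretches of 250 bases upstream of the RefSeq transcript starts of Slc15a2, which was near absent in p53 AD/- cells, and of Cdk5rap1, which was lower in p53-/- cells, are shown because they differ in CG content, with CG dinucleotides in capitals. They come from RefSeq on GRCm38.p6, at chr16:36784963-36785212 on the minus strand for Slc15a2 and chr2:154372720-154372969 on the minus strand for Cdk5rap1, 5′ to 3′.
Slc15a2: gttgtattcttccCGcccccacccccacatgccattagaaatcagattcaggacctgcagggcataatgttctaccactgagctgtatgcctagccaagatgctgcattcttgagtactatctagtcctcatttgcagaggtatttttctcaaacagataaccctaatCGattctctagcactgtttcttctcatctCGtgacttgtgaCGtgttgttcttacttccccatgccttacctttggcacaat
Cdk5rap1: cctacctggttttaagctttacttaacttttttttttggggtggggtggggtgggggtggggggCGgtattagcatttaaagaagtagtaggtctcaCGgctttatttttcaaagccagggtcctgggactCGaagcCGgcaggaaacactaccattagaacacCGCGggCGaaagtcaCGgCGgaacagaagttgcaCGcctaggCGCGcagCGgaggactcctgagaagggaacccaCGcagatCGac
The RefSeq start of Slc15a2 is that of GENCODE, whereas those of Cdk5rap1, Dynlt1c and Bloc1s1 lie 291, 108 and 511 bases from it, so that the Cdk5rap1 and Bloc1s1 stretches fall inside the gene bounds given here. The Slc15a2 stretch held 4 CG dinucleotides, more than 37.8% of the 32851 promoters in the table, and the Cdk5rap1 stretch held 15, more than 72.7% of them. The median over all promoters was 6. The table matched 4 of the 8 genes; Dynlt1c held 16 and Bloc1s1 held 7 CG dinucleotides. None of the 4 held a match to the 10-base p53 binding consensus, which 7.13% of promoters hold, or to TATAA, which 22.8% hold, with both strands searched and each motif counted on its own. A missing match says only that these letters are not in this window.

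After cells with fewer than 500 genes or with 10% or more mitochondrial UMIs (unique molecular identifiers, each standing for 1 counted RNA molecule) were left out, 6171 p53 AD/-, 9543 p53-/- and 8150 p53+/- cells remained with 27494727, 53812231 and 45557301 UMIs. Levels are given as CPM, UMIs scaled to a total of 1000000 within the same library and stage, with 95% Poisson intervals, and ratios between libraries as log2 of CPM with 95% intervals. All intervals cover counting error only. Trp53 itself was counted in every library, at 90.9 CPM in p53 AD/-, with 74.9 in p53-/- and 86.1 in p53+/- cells; which part is deleted is not stated, so these counts do not check the labels. Cells were grouped into DN-like, cycling, quiescent DP-like, selected-like and mature SP-like stages from marker genes, with the 8 genes kept out of the clustering. The quiescent DP markers summed to 10062, 9499 and 9262 CPM in the cells of that name in p53 AD/-, p53-/- and p53+/-, against 4402, 3833 and 4271 CPM over all cells. The largest share of that stage lay in a different cluster in each library, cluster 0 in p53 AD/-, cluster 11 in p53-/- and cluster 5 in p53+/-. Barcodes shared with another library numbered 36, 50 and 44.

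Slc15a2 (ENSMUSG00000022899, GRCm38 chromosome 16, 36750177 to 36784962, minus strand) was all but missing from the p53 AD/- library in every stage that could show it. Over all filtered cells it had 2 UMIs in p53 AD/- cells, with 476 in p53-/- and 274 in p53+/- cells, or 0.0727 (0.00881 to 0.263), 8.85 (8.07 to 9.68) and 6.01 (5.32 to 6.77) CPM. At the p53+/- level, 165 UMIs would have been counted at the p53 AD/- depth. The log2 ratio of p53 AD/- to p53+/- was -6.37 (-9.42 to -4.50), and that of p53 AD/- to p53-/- was -6.93 (-9.98 to -5.07).

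The 2 UMIs lay in 2 cells, 1 of them mature SP-like and 1 antigen-presenting or myeloid-like. In quiescent DP-like cells, where the transporter gene was at its highest in the other libraries, there were 0 UMIs in p53 AD/-, with 224 in p53-/- and 143 in p53+/- cells (0, 19.0 and 10.7 CPM). Against a floor of 3 UMIs, the level was at least 47.1-fold lower in p53 AD/- than in p53-/- and at least 26.5-fold lower than in p53+/- cells. The stage that supplied more Slc15a2 counts than any other in those libraries thus gave none in this one.

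The same held on either side of the quiescent stage. In cycling cells there were 0 UMIs in p53 AD/-, with 81 in p53-/- and 46 in p53+/-, at least 11.4-fold and at least 8.98-fold lower. Selected-like cells had 0, 103 and 53 UMIs in the same order, at least 22.1-fold and at least 11.4-fold lower. Mature SP-like cells had 1, 30 and 21 UMIs, a log2 ratio of -4.14 (-9.49 to -1.55) over p53-/- and -3.97 (-9.34 to -1.33) over p53+/-. DN-like cells were thinly counted, with 0 UMIs in 52 p53 AD/- cells, 13 in p53-/- and 6 in p53+/- cells. Only 3 UMIs would have been counted there at the p53+/- level and 5.19 at the p53-/- level. The upper end of the log2 ratio interval was -0.28 over p53-/- and 0.77 over p53+/-. Slc15a2 also stood higher in p53-/- than in p53+/- cells, by a log2 ratio of 0.56 (0.34 to 0.78) over all cells, with point ratios between 0.16 in mature SP-like and 0.96 in selected-like cells. The interval lay above 0 in quiescent DP-like (0.52 to 1.14) and selected-like cells (0.47 to 1.47). It reached past 0 in DN-like (-0.70 to 2.47), cycling (-0.20 to 0.90) and mature SP-like cells (-0.69 to 1.04). With stages taken from marker gates in place of clusters, the mature SP-like ratio was 1.19.

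**Figure D1:**
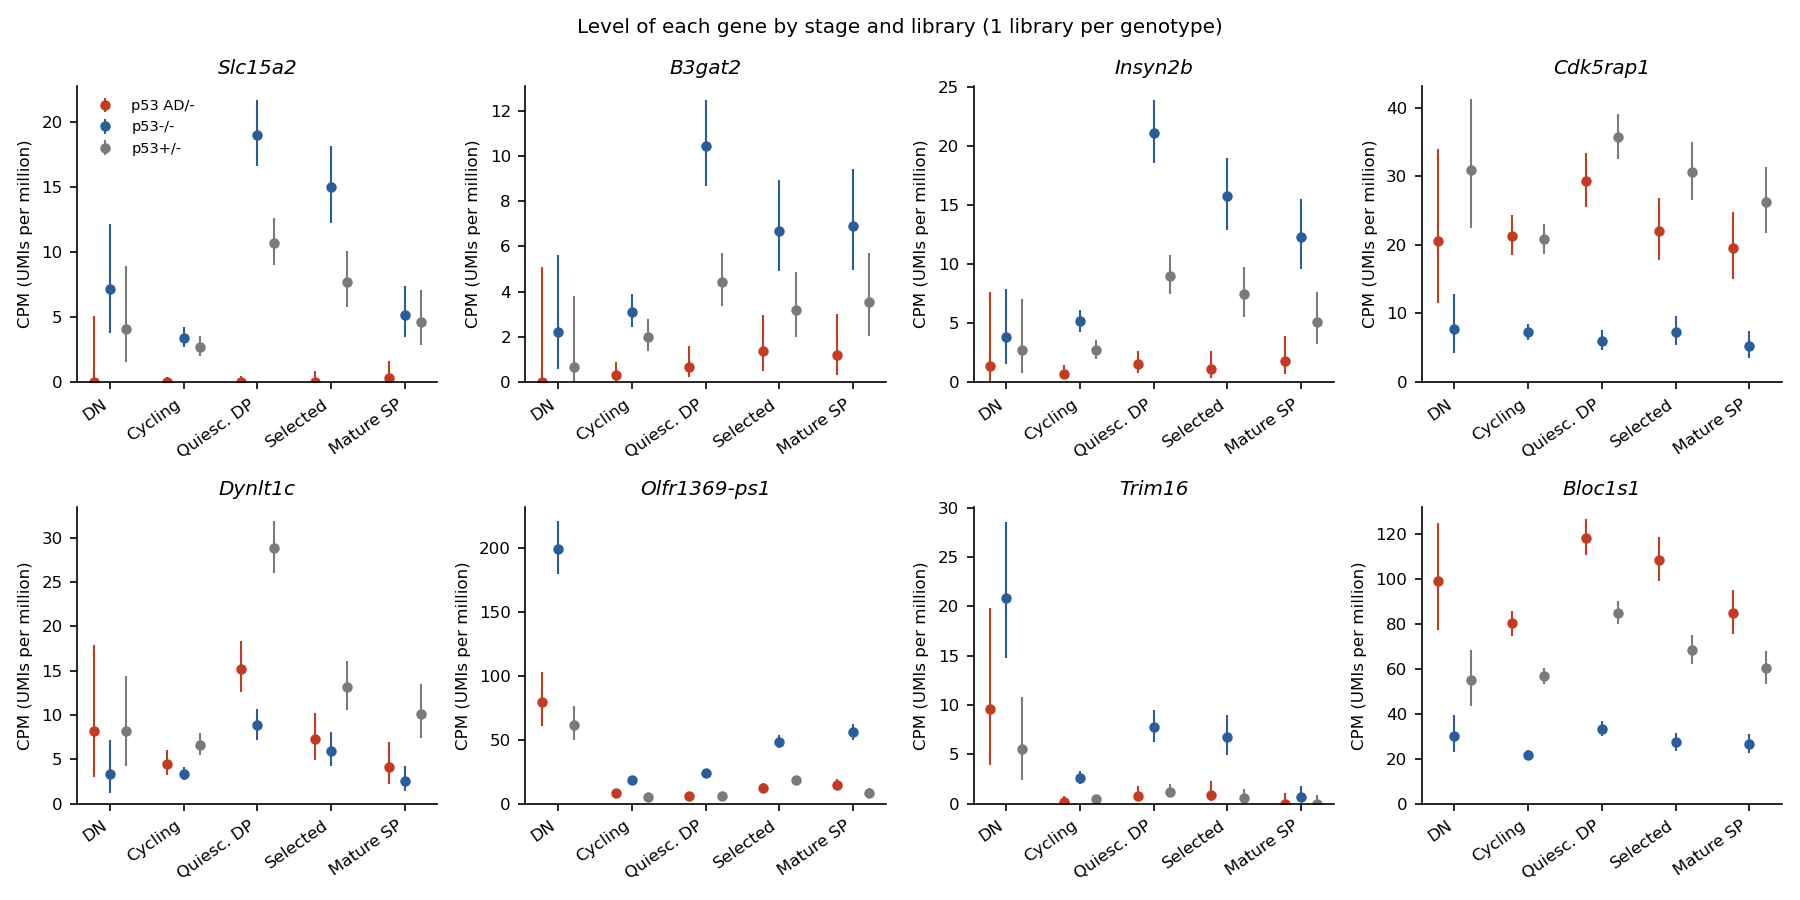
Level of each of the 8 genes in CPM (linear axis) by stage, 1 panel per gene, with p53 AD/- in red, p53-/- in blue and p53+/- in grey. Points are 1 library each and bars are 95% Poisson intervals; Slc15a2 is at 0 CPM in p53 AD/- quiescent DP-like cells, against 19.0 in p53-/- and 10.7 in p53+/-.

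B3gat2 (ENSMUSG00000026156, chromosome 1, 23761753 to 23849158, plus strand) was lower in p53 AD/- cells in all 4 stages with enough counts, but was not absent. It had 19 UMIs in p53 AD/-, with 311 in p53-/- and 133 in p53+/- cells, or 0.691 (0.416 to 1.08), 5.78 (5.15 to 6.46) and 2.92 (2.44 to 3.46) CPM. The log2 ratio was -3.06 (-3.82 to -2.40) over p53-/- and -2.08 (-2.86 to -1.38) over p53+/-. The 3 intervals did not overlap, and the order p53-/-, p53+/-, p53 AD/- from high to low was that of Slc15a2.

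By stage, the p53 AD/- over p53+/- ratio of B3gat2 was -2.73 in cycling, -2.71 in quiescent DP-like, -1.24 in selected-like and -1.58 in mature SP-like cells. The last 2 rest on 6 against 22 and 4 against 16 UMIs, and their intervals, -2.83 to 0.11 and -3.62 to 0.05, reach past 0. Against p53-/-, all 4 intervals lay below 0, with ratios between -3.96 in quiescent DP-like and -2.30 in selected-like cells. DN-like cells had 0, 4 and 1 UMIs in p53 AD/-, p53-/- and p53+/- and say nothing at this depth.

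Insyn2b (ENSMUSG00000069911, chromosome 11, 34314822 to 34422640, plus strand) followed the same order. It had 30 UMIs in p53 AD/-, with 583 in p53-/- and 252 in p53+/- cells, or 1.09 (0.736 to 1.56), 10.8 (9.97 to 11.8) and 5.53 (4.87 to 6.26) CPM. The log2 ratio of p53 AD/- was -3.31 (-3.89 to -2.78) to p53-/- and -2.34 (-2.94 to -1.79) to p53+/-, and p53-/- cells stood 0.97 (0.75 to 1.19) above p53+/- cells. In the 4 stages from cycling to mature SP-like, each p53 AD/- interval lay below 0, at point ratios over p53+/- of -1.94, -2.60, -2.71 and -1.52. DN-like cells had 1, 7 and 4 UMIs in p53 AD/-, p53-/- and p53+/-, too few to place.

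Other measures also differed between the libraries, and their part in the result was not tested. Malat1, a nuclear RNA, took a median 2.80% of a cell's UMIs in p53 AD/-, with 5.63% in p53-/- and 5.08% in p53+/- cells, and cells under 1% Malat1 made up 27.4%, 10.6% and 9.90%. Without those cells the p53 AD/- over p53+/- log2 ratio was -5.30 for Slc15a2 (counts under 3 set to 3), -1.90 for B3gat2 and -2.01 for Insyn2b. All 6 granulocyte markers had UMIs in every library and summed to 101 CPM in p53 AD/-, with 1531 in p53-/- and 180 in p53+/- cells. In quiescent DP-like cells the same list summed to 4.58, 47.3 and 36.6 CPM, with 3 of the 6 at 0 in p53 AD/- and none at 0 in the other libraries. Erythroid markers in those cells summed to 13.6, 99.9 and 423 CPM, with 2, 1 and 1 of 6 at 0. Here p53+/- cells stood highest, not p53-/- cells. For some other lists, the library that stood highest depended on the cells summed. Antigen-presenting or myeloid markers summed to 1068, 946 and 520 CPM over all cells in the same order of libraries. In quiescent DP-like cells they summed to 57.0, 75.1 and 37.0 CPM, highest in p53-/-. B cell markers summed to 393, 337 and 310 CPM in quiescent DP-like cells. Over all cells they summed to 311, 284 and 313 CPM, highest in p53+/-.

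Cdk5rap1 (ENSMUSG00000027487, chromosome 2, 154335380 to 154373010, minus strand) was lower in p53-/- cells in all 5 stages. It had 637 UMIs in p53 AD/-, with 349 in p53-/- and 1239 in p53+/- cells, or 23.2 (21.4 to 25), 6.49 (5.82 to 7.20) and 27.2 (25.7 to 28.8) CPM. The p53-/- over p53+/- ratio was -2.07 (-2.24 to -1.90), and in DN-like, cycling, quiescent DP-like, selected-like and mature SP-like cells it was -2.01, -1.53, -2.56, -2.07 and -2.34. All 5 intervals lay below -1. p53 AD/- cells stayed near p53+/- cells, with a ratio of -0.23 (-0.37 to -0.09) over all cells and stage ratios between -0.58 in DN-like and 0.03 in cycling cells.

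Bloc1s1 (ENSMUSG00000090247, chromosome 10, 128917882 to 128924035, minus strand) differed among all 3 libraries. It had 2686 UMIs in p53 AD/-, with 1397 in p53-/- and 3081 in p53+/- cells, or 97.7 (94.0 to 101), 26.0 (24.6 to 27.4) and 67.6 (65.3 to 70.1) CPM. The p53-/- over p53+/- ratio was -1.38 (-1.47 to -1.29) over all cells and lay between -1.39 in cycling and -1.19 in mature SP-like cells, except for -0.86 (-1.39 to -0.35) in DN-like cells. The p53 AD/- over p53+/- ratio was 0.53 (0.46 to 0.61), with every stage interval above 0 and point ratios from 0.48 to 0.85. p53 AD/- over p53-/- it was 1.91 (1.82 to 2.01), between 1.68 in mature SP-like and 1.99 in selected-like cells.

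Dynlt1c (ENSMUSG00000000579, chromosome 17, 6601671 to 6609774, plus strand) was lower in p53-/- and, less far, in p53 AD/- cells. It had 215 UMIs in p53 AD/-, with 263 in p53-/- and 656 in p53+/- cells, or 7.82 (6.81 to 8.94), 4.89 (4.31 to 5.52) and 14.4 (13.3 to 15.5) CPM. The p53-/- over p53+/- ratio was -1.56 (-1.77 to -1.35) over all cells and -1.71 (-2.03 to -1.39) in quiescent DP-like, but -0.99 (-1.42 to -0.56) in cycling cells. The p53 AD/- over p53+/- ratio was -0.88 (-1.11 to -0.66), with the stages between 0.00 in DN-like, on 6 against 12 UMIs, and -1.29 in mature SP-like cells. The Dynlt1c counts carry a limit of their own, since 84.4% of the 50-base windows of its transcripts also occur in other genes and 77.7% occur in Dynlt1f.

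**Figure D2:**
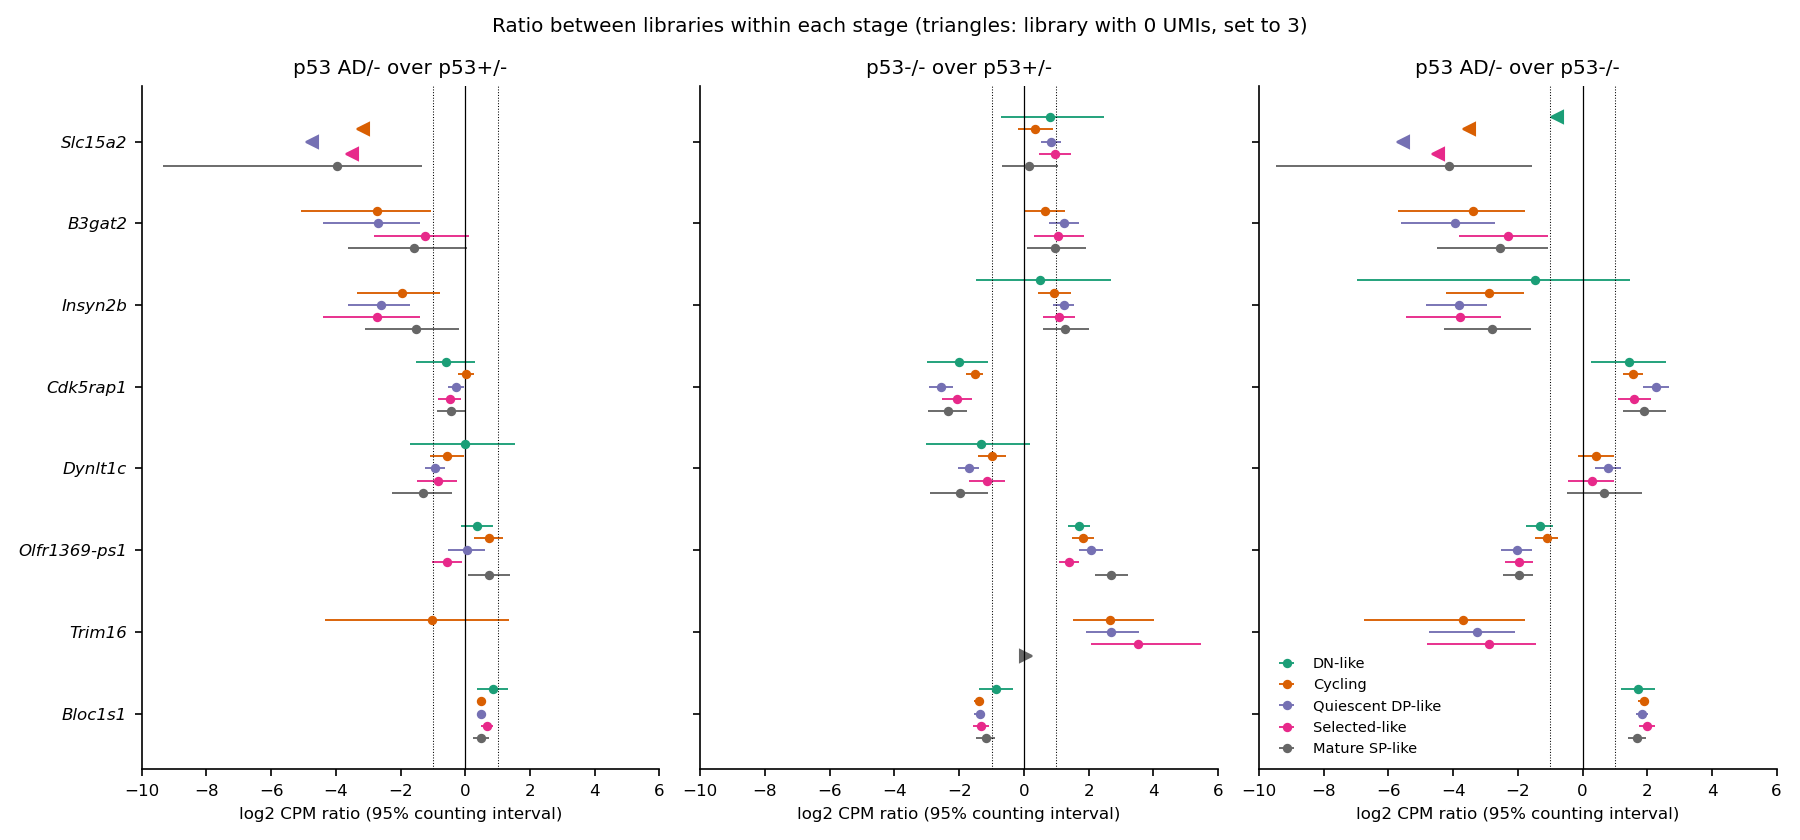
log2 CPM ratio between libraries in each stage for the 8 genes (rows), with p53 AD/- over p53+/-, p53-/- over p53+/- and p53 AD/- over p53-/- from left to right. Stages with enough counts are shown, except Trim16 in mature SP-like cells for p53 AD/- over p53-/- (0 against 4 UMIs), which is left out. Points are ratios with 95% counting intervals, triangles are bounds where 1 library had 0 UMIs, and dotted lines mark 2-fold. Cdk5rap1 lies left of the lower dotted line in all 5 stages for p53-/- over p53+/-. Slc15a2 appears as triangles in both p53 AD/- panels, except for a point in mature SP-like cells.

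Olfr1369-ps1 (ENSMUSG00000060404, chromosome 13, 21111483 to 21119095, plus strand) was higher in p53-/- cells in every stage by summed UMIs. It had 295 UMIs in p53 AD/-, with 1904 in p53-/- and 443 in p53+/- cells, or 10.7 (9.54 to 12), 35.4 (33.8 to 37.0) and 9.72 (8.84 to 10.7) CPM. The p53-/- over p53+/- ratio was 1.86 (1.71 to 2.02), at its lowest 1.39 (1.09 to 1.70) in selected-like and at its highest 2.70 (2.21 to 3.21) in mature SP-like cells. The UMIs were unevenly spread over cells: 132, 484 and 205 cells held them, with up to 16, 84 and 20 in a cell, so its Poisson intervals are too narrow. Among DN-like cells, 30.8% held a UMI in p53 AD/-, with 26.7% in p53-/- and 24.5% in p53+/-. By that share p53-/- was not highest. With cells thinned to 1500 UMIs the shares were 3.85%, 19.2% and 6.38% in the same order.

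Within each library Olfr1369-ps1 stood highest in DN-like cells, at 79.6 CPM in p53 AD/-, with 199 in p53-/- and 61.7 in p53+/-, against 5.93, 24.2 and 5.76 CPM in quiescent DP-like cells. In each stage the p53-/- level lay above that of the other libraries, while the order of the stages below DN-like differed between libraries. p53 AD/- over p53+/- it was 0.14 (-0.08 to 0.36) over all cells, 0.72 in cycling and in mature SP-like cells and -0.56 in selected-like cells.

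Trim16 (ENSMUSG00000047821, chromosome 11, 62820231 to 62850808, plus strand) was counted mostly in the p53-/- library. It had 22 UMIs in p53 AD/-, with 246 in p53-/- and 42 in p53+/- cells, or 0.800 (0.501 to 1.21), 4.57 (4.02 to 5.18) and 0.922 (0.664 to 1.25) CPM. The intervals of p53 AD/- and p53+/- overlap, and p53-/- lies above both. The p53-/- over p53+/- ratio was 2.31 (1.83 to 2.82), with 2.65 in cycling, 2.69 in quiescent DP-like and 3.52 in selected-like cells.

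In DN-like cells Trim16 had 7 UMIs in p53 AD/-, with 38 in p53-/- and 8 in p53+/-, a p53-/- over p53+/- ratio of 1.93 (0.80 to 3.24). Mature SP-like cells were the exception, with 0, 4 and 0 UMIs in p53 AD/-, p53-/- and p53+/-, so the gene was barely counted in this stage in any library and a shift could not be shown. Among the 5 stages, DN-like cells held the highest Trim16 level in each library, at 9.61 CPM in p53 AD/-, with 20.8 in p53-/- and 5.48 in p53+/-. Within p53-/- the level was 2.57 CPM in cycling, 7.73 in quiescent DP-like, 6.70 in selected-like and 0.691 in mature SP-like cells. The granulocyte marker sums given above were also at their highest in p53-/- cells, and their part in the Trim16 and Olfr1369-ps1 values was not tested.

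Differences were counted past 2-fold over all cells and, as a stricter rule, in every stage. A stage entered where a gene, at the higher of the all-cell levels of the 2 libraries, would have given at least 20 UMIs in them together, and at least 3 stages had to enter. For p53 AD/- over p53+/-, 3 of the 8 genes passed 2-fold over all cells, where 9.78% of 13987 genes did so, and the same 3, Slc15a2, B3gat2 and Insyn2b, of 7 that could be placed passed it in every stage, where 0.785% of 11470 genes did so. For p53-/- over p53+/-, 5 of 8 passed over all cells (6.65% of 14690 genes) and 2, Cdk5rap1 and Olfr1369-ps1, in every stage (0.306% of 11776). For p53 AD/- over p53-/-, 7 of 8 passed over all cells (12.3% of 14433) and 4, B3gat2, Cdk5rap1, Olfr1369-ps1 and Bloc1s1, in every stage (1.89% of 11590). The genes were chosen on these ratios, so the counts describe them and are not evidence of an excess, and the comparisons share libraries.

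The misses were close or thinly counted. For p53-/- over p53+/-, Dynlt1c missed by its -0.99 in cycling cells, Bloc1s1 by its -0.86 in DN-like cells and Trim16 by its 4 UMIs in mature SP-like cells. For p53 AD/- over p53-/-, Slc15a2 missed since its DN-like bound is only 1.73-fold, on 0 against 13 UMIs. Insyn2b missed there on 1 against 7 UMIs in DN-like cells, with the count of 1 set to 3. Trim16 missed again by its mature SP-like counts.

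Over the whole matrix, genes lower in every stage outnumbered genes higher in every stage in the comparisons of p53 AD/-, with 79 lower and 11 higher over p53+/- and 182 lower and 37 higher over p53-/-. Between p53-/- and p53+/- there were 18 of each. At 4-fold in every stage, only Slc15a2 among the 8 passed for p53 AD/- over p53+/- (0.0436% of genes) and only B3gat2 for p53 AD/- over p53-/- (0.155%), and none for p53-/- over p53+/- (0.00849%). Outside the 8, the genes past 4-fold in every stage for p53 AD/- over p53-/- included the histone gene Hist1h2ap (9385 against 1382 CPM), Pdf, a mitochondrial peptide deformylase (3.78 against 0.688 CPM), and Gstp1, a glutathione S-transferase (146 against 32.1 CPM), all higher. Lnx1, a ubiquitin ligase gene (0.255 against 3.64 CPM), and Tsix, the antisense RNA of Xist (28.1 against 190 CPM), were lower.

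**Figure D3:**
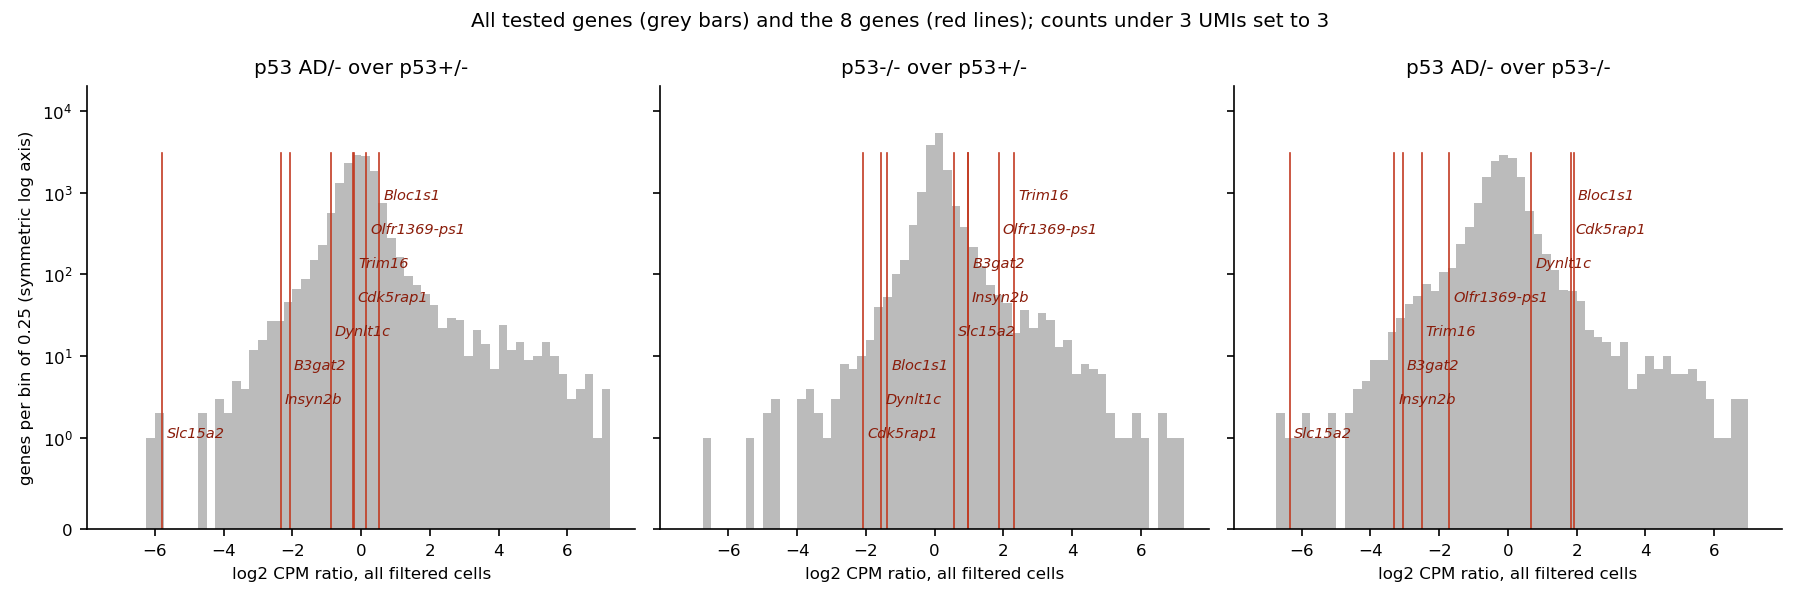
Number of genes (symmetric log axis) by log2 CPM ratio over all filtered cells in bins of 0.25, for p53 AD/- over p53+/-, p53-/- over p53+/- and p53 AD/- over p53-/- from left to right, with red lines at the 8 genes. Counts under 3 UMIs are set to 3 here, which puts Slc15a2 at -5.78 for p53 AD/- over p53+/-, where 2 of 13987 genes lie lower.

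The shift was also looked for in the single clusters that make up the stages, a view added after the data were seen. Slc15a2 had 0 UMIs in p53 AD/- in all 8 clusters that could show a difference from p53+/-, among them 3 quiescent DP-like clusters. In cluster 0, which holds 2620 of the 3419 quiescent DP-like p53 AD/- cells and 795 p53+/- cells, the counts were 0 UMIs in p53 AD/- against 12 in p53+/-, at least 10.9-fold lower. Insyn2b was lower in p53 AD/- than in p53+/- in 8 of 8 clusters, with the interval below 0 in 7, and B3gat2 in 3 of 3, with the interval below 0 in 1. In cluster 0 itself neither was set apart by its interval, with 9 against 8 UMIs for Insyn2b (log2 ratio -1.27, -2.82 to 0.30) and 4 against 2 for B3gat2 (-0.44, -3.25 to 3.02).

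Cdk5rap1 and Bloc1s1 were each lower in p53-/- than in p53+/- in 17 of 17 clusters, with the interval below 0 in 14 and 15 of them. Trim16 was higher in 8 of 8, with the interval above 0 in 5. Dynlt1c was lower in 14 of 16, with the interval below 0 in 9. The exceptions were a selected-like cluster with 7 against 6 UMIs and an antigen-presenting cluster with 9 against 4. Olfr1369-ps1 was higher in p53-/- in 16 of 17 clusters, with the interval above 0 in 15. It was lower in 1, an antigen-presenting cluster with B cell genes (3 against 7 UMIs, log2 ratio -2.30, -4.89 to -0.17). Antigen-presenting or myeloid-like p53+/- cells held 8 of its UMIs in 2 cells, with up to 7 in a cell, so that interval is too narrow.

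Related genes were taken from lists chosen with earlier results known. Their counts past 2-fold are to be read beside 9.78% of all genes for p53 AD/- over p53+/-, 6.65% for p53-/- over p53+/- and 12.3% for p53 AD/- over p53-/-, so that 0 or 1 gene in lists this short is near the share of all genes. Among the other peptide transporters, 3 had enough counts and none passed 2-fold for p53 AD/- over p53+/-: Slc15a1, Slc15a3 and Slc15a4 had 0.691, 1.78 and 7.17 CPM in p53 AD/- against 1.10, 1.80 and 8.60 CPM in p53+/-, with a median log2 ratio of -0.26 beside -0.05 for all genes. Slc15a3, a lysosomal transporter of histidine and small peptides, was higher in p53-/- than in p53+/- (log2 ratio 1.49, 1.13 to 1.86) and lower in p53 AD/- than in p53-/- (-1.50, -1.97 to -1.06). Of 7 other enzymes of glycosaminoglycan linker and HNK-1 synthesis, none passed over p53+/- in either library, and Xylt1, which starts the linker, was lower in p53 AD/- than in p53-/- (-1.38, -1.72 to -1.06). The other inhibitory synaptic factor genes, Insyn1 and Insyn2a, had at most 6 UMIs in a library and were not placed.

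Cdkal1 and Trit1, which modify cytosolic and other tRNAs, lay within 2-fold in all 3 comparisons, at -0.08 and -0.23 for p53-/- over p53+/-, where Cdk5rap1 stood at -2.07. Of 12 other BLOC-1 and BORC subunits, none passed 2-fold in any comparison, with a median p53-/- over p53+/- ratio of 0.03 beside 0.07 for all genes. None of 10 genes of the unfolded protein response, the pathway of IRE1, passed either, and their medians were 0.04, 0.18 and -0.23 for p53 AD/- over p53+/-, p53-/- over p53+/- and p53 AD/- over p53-/-, beside -0.05, 0.07 and -0.13 for all genes. Of 8 dynein light chain genes, only Dynlrb2 passed for p53-/- over p53+/-, on 11 against 35 UMIs (-1.91, -3.04 to -0.90), and the median was -0.14.

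Dynlt1b, a near copy of Dynlt1c, was lower in p53-/- cells (-0.96, -1.16 to -0.77), short of 2-fold, while Dynlt1f, whose sequence overlaps most with Dynlt1c, stood at 0.07 (-0.01 to 0.16). Among 8 partners of Trim16 in autophagy and the oxidative stress response, Lgals3, which encodes galectin-3, passed for p53-/- over p53+/- (1.0, 0.88 to 1.13), and the median was 0.22. Of 9 p53 pathway genes, Cdkn1a, a cell cycle inhibitor gene, passed in both comparisons with p53+/-, at 11.9 CPM in p53 AD/-, with 12.1 in p53-/- and 5.55 in p53+/- cells, and none passed between p53 AD/- and p53-/-.

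The genes lie on 7 chromosomes, with Insyn2b and Trim16 on chromosome 11, 35.3 and 6.76 Mb from Trp53. Genes past 2-fold in every stage on chromosome 11 numbered 8 of 949 for p53 AD/- over p53+/-, 0 of 970 for p53-/- over p53+/- and 17 of 959 for p53 AD/- over p53-/-. The shares, 0.843%, 0% and 1.77%, stand beside 0.785%, 0.306% and 1.89% of all genes. Of the genes within 1 Mb of the 8, 13 of 167 (7.78%) passed 2-fold over all cells for p53 AD/- over p53+/-, 16 of 176 (9.09%) for p53-/- over p53+/- and 30 of 175 (17.1%) for p53 AD/- over p53-/-, beside 9.78%, 6.65% and 12.3% of all genes. In every stage 3, 3 and 7 of them did so.

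None of the 5 neighbours of B3gat2 passed 2-fold for p53 AD/- over p53+/-, and their ratios lay between -0.17 and 0.15. None of the 20 neighbours of Cdk5rap1 and none of the 17 of Dynlt1c passed for p53-/- over p53+/-. Slc15a2 had 4 of 22 past 2-fold for p53 AD/- over p53+/-: Cstdc5, a cystatin gene (81 against 0 UMIs), and Ildr1 (34 against 11 UMIs) were higher, and 2 genes with no name were lower. Bloc1s1 had 2 of 43 for p53-/- over p53+/-, the tetraspanin gene Cd63 (higher) and its overlapping neighbour Rdh5 (lower). Trim16 had 1 of 22, Specc1, and Olfr1369-ps1 5 of 36. Of these, the histone gene Hist1h4m (105 against 1 UMIs) and the thymus protease gene Prss16 were higher in p53-/-, and the histone genes Hist1h4n, Hist1h2ap and Hist1h2br were lower. Insyn2b had 2 of 6 for p53 AD/- over p53+/-, Gabrp (22 against 8 UMIs, higher) and 1 gene with no name (lower). For p53 AD/- over p53-/- more neighbours passed: 7 of 25 for Slc15a2, 6 of 23 for Trim16 and 9 of 36 for Olfr1369-ps1, of which 1, 2 and 3 did so in every stage.

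**Figure D4:**
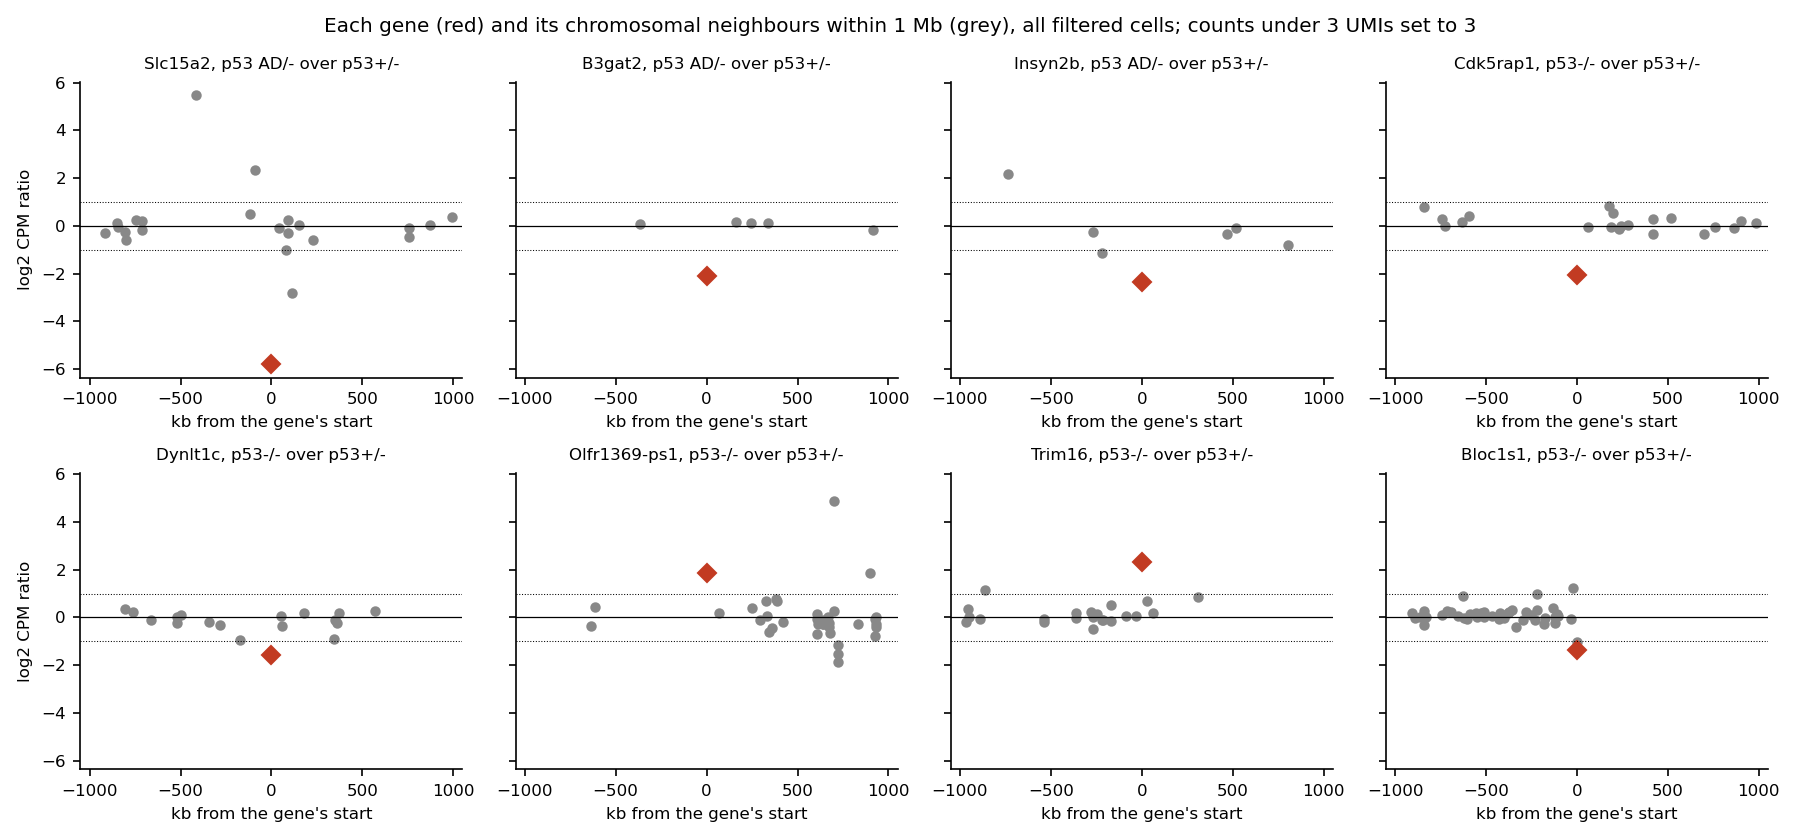
log2 CPM ratio over all filtered cells of each of the 8 genes (red diamonds) and of counted genes within 1 Mb (grey points), by distance of gene starts in kb, for the comparison in which each gene was shifted. Dotted lines mark 2-fold and counts under 3 UMIs are set to 3; Cdk5rap1 and B3gat2 stand outside 2-fold with no neighbour beyond it.

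Overlapping genes bear on several of the counts, since no source used here says whether strand was used in counting. Insyn2b lies inside Dock2, a gene of lymphocyte migration on the opposite strand that was counted at 98.0 CPM in p53 AD/-, with 122 in p53-/- and 124 in p53+/- cells. B3gat2 overlaps Smap1 on the opposite strand (105, 106 and 95 CPM). Neither partner passed 2-fold, yet both outnumbered the gene they overlap by more than 10 times. Genes with such a partner on the opposite strand, a group defined after the data were seen, were often lower in p53 AD/-: 22.2% of 817 were past 2-fold lower and 3.67% past 2-fold higher than in p53+/-, against 3.80% lower and 4.98% higher of the other 13170.

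Over p53-/- the shares were 28.2% lower and 4.51% higher of 887 such genes, against 6.76% and 4.24% of 13546 others. For p53-/- over p53+/- they were 3.21% lower and 6.82% higher of 997, against 1.63% and 4.78% of 13693. Their median p53 AD/- over p53+/- ratio was -0.28, against -0.05 in the others. B3gat2 and Insyn2b, at -2.08 and -2.34, belong to this group. Slc15a2 overlaps no gene of the matrix and is not in this group. The part of opposite-strand reads in the B3gat2 and Insyn2b counts was not tested.

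**Figure D5:**
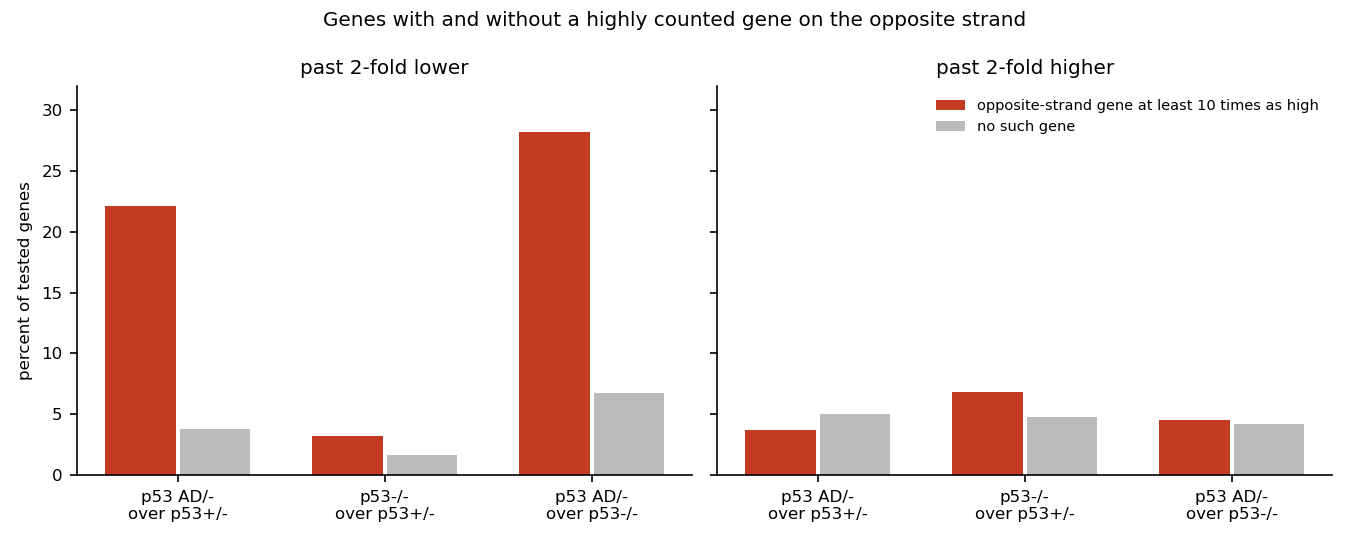
Percent of tested genes past 2-fold lower (left) and higher (right) over all filtered cells in each comparison, for genes that overlap a gene on the opposite strand counted at least 10 times as high (red) and for all other genes (grey). The red bars stand at 22.2% and 28.2% lower in the p53 AD/- comparisons and at 3.21% for p53-/- over p53+/-.

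On the same strand, Bloc1s1 shares 47.7% of its 50-base transcript windows with other genes, nearly all with Rdh5, a retinol dehydrogenase gene. Rdh5 was counted at 4.00 CPM in p53 AD/-, with 1.28 in p53-/- and 2.59 in p53+/- cells, log2 ratios of 1.64 for p53 AD/- over p53-/- and -1.01 for p53-/- over p53+/-, the directions of Bloc1s1. Trim16 shares 4.13% with Fbxw10, which stood at 4.98, 8.68 and 5.33 CPM. Olfr1369-ps1 shares 13.8%, mostly with the olfactory receptor gene Olfr263. For Slc15a2 (0.534%) and Cdk5rap1 (0.989%) little is shared, and for B3gat2 and Insyn2b none. Shared windows were thus most common for Dynlt1c and Bloc1s1. How reads from such windows were counted was not tested, so the values of both genes are uncertain.

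The 8 genes fell into groups by their pattern over the 15 values made by 3 libraries and 5 stages, with log2(CPM + 1) as the scale. These points share libraries and depth, so the coefficients describe the pattern only. Slc15a2 followed Insyn2b (r = 0.92) and B3gat2 (0.85), and B3gat2 followed Insyn2b (0.94). Cdk5rap1 followed Bloc1s1 (0.85) and Dynlt1c (0.69), and Olfr1369-ps1 followed Trim16 (0.80).

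Among 9702 genes with at least 300 UMIs, the pattern of Slc15a2 was most like those of Uchl4 (0.95), the granulocyte gene S100a9 (0.95) and Masp2 (0.94). Uchl4 led for Insyn2b as well (0.97), followed by Cic (0.94), while Tcf20 and Cic (both 0.93) came after Insyn2b for B3gat2. Among the 3 genes nearest to Cdk5rap1 were Bloc1s1 and Tmem39a (0.83), and among the 3 nearest to Bloc1s1 were Coro1b (0.91) and Mrps21 (0.86). Dynlt1c was most like Rsrp1 (0.87), Lars2 (0.86) and Tmem39a (0.85). Olfr1369-ps1 was nearest to Zbtb16 (0.89), a factor of innate-like T cells, Slc39a11 (0.88) and Nucb1 (0.88), and Trim16 to Anks1 (0.94), Btg3 (0.93) and Parvg (0.92).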

How the data were processed

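Single-cell RNA of the thymus was measured in 3 libraries, grouped by the genotype label. The deposited values were raw UMI counts per gene and cell barcode, which per the file headers the authors made with Cell Ranger 4.0.0, aligned to GRCm38 per the submitters' processing notes. The sources used here give neither the gene annotation nor the use of strand. Positions were taken from GENCODE M21 (GRCm38), which holds 99.8% of the 32285 gene identifiers.

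Cells with at least 500 genes and under 10% mitochondrial UMIs were kept. No doublet caller was run, so doublets remain. The 3 libraries were clustered together in scanpy 1.11.5 with igraph 0.11.9 (pandas 2.3.3, scipy 1.17.1 and numpy 2.4.6 under Python 3.11.15): counts scaled to 10000, 2000 variable genes without the 8 genes, 30 components, 15 neighbours, Leiden resolution 1, seed 1. A cluster name needed 3 markers detected in 5% of its cells, at least 2 of its own among its top 10 genes, and fewer of any other class. The need for 2 own markers was set after a 24-cell cluster had been named from 1.

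UMIs were summed per library and stage and given as CPM, with exact Poisson intervals. Ratios have exact conditional binomial intervals. Genes needed 30 UMIs over a pair of libraries, and counts under 3 were set to 3 for calls past 2-fold. The procedure was tested on simulated data. The 8 genes and the lists were chosen with earlier results of these data known. Genes named besides them were, by rule, the 3 most like each in pattern, neighbours past 2-fold where the gene was shifted, list members, and up to 5 others past 4-fold in every stage per direction and comparison, of those that have names. Not every gene so selected is named. TMM and median-of-ratios factors came from edgeR 4.0.16 and DESeq2 1.42.0 in R 4.3.3, as scaling only.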

Additional observations from a re-analysis of the deposited data

Results flagged for a closer look

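Summed over cells, the Olfr1369-ps1 ratio of p53 AD/- over p53+/- differed in sign between stages. The log2 ratio was 0.72 (0.28 to 1.17) in cycling cells, with 8.56 CPM in p53 AD/- against 5.19 in p53+/-. In mature SP-like cells it was 0.72 (0.08 to 1.37), with 14.2 against 8.59 CPM. Selected-like cells went the other way, at -0.56 (-1.04 to -0.09), with 12.5 CPM in p53 AD/- against 18.3 in p53+/-. Since a few cells hold many of the UMIs, these counting intervals are too narrow. The cells with a UMI numbered 28 of 756 in p53 AD/- against 38 of 1058 in p53+/- in cycling cells. They numbered 32 of 1327 against 58 of 1703 in selected-like and 20 of 461 against 22 of 574 in mature SP-like cells. With cells thinned to 1500 UMIs, they numbered 9 of 756 against 6 of 1039 in cycling cells. Thinned selected-like cells gave 22 of 1263 against 34 of 1653, and mature SP-like cells 4 of 459 against 8 of 571. Over all cells the ratio was 0.14 from summed UMIs and -0.17 as a mean over cells. The difference between the stages was not tested, and 1 library per genotype stands behind each value.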

How the results depend on the processing

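No paired analysis was possible because each genotype has 1 library, so that the groups have fewer than 2 replicate numbers in common. Over all cells, the counts of the 8 genes past 2-fold stayed within 1.5 times the values given in all 9 alternatives per comparison, and 180 of 192 alternative ratios stayed within the counting interval. Among those that moved, thinning cells to 1500 UMIs put B3gat2 at -3.04 and Trim16 at -1.07 for p53 AD/- over p53+/-, and Trim16 at -3.79 for p53 AD/- over p53-/-. The number of all genes past 2-fold, 1368, 977 and 1780 for p53 AD/- over p53+/-, p53-/- over p53+/- and p53 AD/- over p53-/-, was 566, 415 and 957 after thinning and 572, 390 and 856 with at least 100 UMIs over the pair. Genes past 2-fold in every stage for p53 AD/- over p53+/- numbered 55 instead of 90 with at least 60 UMIs expected per stage. With stages from marker gates in place of clusters, 4 of the 8 genes instead of 2 passed in every stage for p53-/- over p53+/-. Neighbours past 2-fold numbered 26 within 2 Mb instead of 13 within 1 Mb for p53 AD/- over p53+/-. They numbered 6 within 500 kb and 30 within 2 Mb instead of 16 for p53-/- over p53+/-, and 13 within 500 kb instead of 30 for p53 AD/- over p53-/-. Fewer UMIs or genes enter under thinning, higher minimums and narrower windows, and more under wider ones; for the marker gates the cause was not tested. When each library was clustered alone, p53 AD/- had no DN-like cluster. Median-of-ratios scaling moved p53 AD/- over p53-/- by 0.11 on the log2 scale. Depth limits the DN-like stage most, where 3 UMIs in p53 AD/- equal 4.12 CPM.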

Other observations

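Outside the 8 genes, 3 others were singled out after their values were seen for a shift in every stage that entered. Gm16867, a gene model on chromosome 14, had 193 UMIs (7.02 CPM) in p53 AD/- cells and 0 in both p53-/- and p53+/- cells, a log2 ratio of at least 6.98 and at least 6.74 against a floor of 3 UMIs, and passed 4-fold in all 4 stages that entered. Gm8797, a gene model on chromosome 3, had 4.04 CPM in p53 AD/-, with 35 in p53-/- and 4.35 in p53+/- cells, and passed 4-fold in all 5 stages for p53-/- over p53+/-. The mitochondrial gene mt-Nd6, which is transcribed from the strand opposite to most mitochondrial genes, was at 14.1 CPM in p53 AD/-, with 94.8 in p53-/- and 116 in p53+/- cells, and was past 4-fold lower in all 5 stages in both comparisons of p53 AD/-.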
